A study of Mus musculus with 43 samples.

Results

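Draining lymph nodes were compared with spleen in a pooled knockout screen of metabolic genes in tumour-specific CD8+ T cells. The 6 draining lymph node libraries and the 6 spleen libraries were chosen by the organ in their labels, and they make up 12 of the 43 samples of the series. OT-I:Rosa26-Cas9 T cells, mouse CD8+ T cells that carry Cas9 and a receptor for an ovalbumin peptide, received a lentiviral sgRNA library together with the surface mark CD90.1, and were transferred into Rosa26-Cas9 mice with an orthotopic KPC_OVA tumour, a pancreatic cancer line that expresses ovalbumin. All 4 groups share this transfer, tumour and sort of CD90.1+ cells 7 days later. They differ in the organ and in the antibody that the mice received, which was either IgG or anti-PD-1, with 3 libraries in each group. Recipients also kept their own lymphocytes, and the number of mice and of sorted cells behind each library was not given in the sources used here. The p-values below therefore measure the spread between these libraries, which may be in part technical. No marker expression could be checked, because the libraries hold only sgRNA reads from genomic DNA.

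A pooled screen is read as if each T cell carried 1 knockout, and the sgRNA in its genome serves as a barcode that is passed on to all daughter cells. The paper states a multiplicity of infection, the virus dose per cell, far above 1. How many sgRNAs each cell carried was not given in the sources used here. An sgRNA becomes more abundant in an organ when its carriers enter, stay, survive or divide there more than other cells, and it disappears when they are lost or when few carriers were present at the start. Naive and central memory T cells enter lymph nodes from the blood through high endothelial venules, using selectin ligands and chemokine receptors, and they leave along sphingosine 1-phosphate. The spleen is entered from the blood without such vessels and holds many circulating effector T cells, whereas tumour-draining nodes are a site at which tumour antigen is presented.

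The table analysed holds 10390 sgRNAs that target 2078 genes, 5 for each gene, and 250 nontargeting sgRNAs. The values are a normalized and batch-corrected signal, so the read depth is unknown. According to the paper, the batch correction was made between organs, and organ is also the factor compared here. How far it altered differences between nodes and spleen was not tested. An undetected sgRNA stands at 0 in the libraries numbered 3, and nearly always at a low value above 0 that it shares with other libraries of the same number in those numbered 1 and 2. An sgRNA was called detected where its signal lay above that lowest value and above 0. No library of the 12 was a copy of another.

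The draining node libraries held few of the sgRNAs that the spleen libraries held. Of the targeting sgRNAs, 21.4%, 20.8% and 51.4% were detected in the draining nodes of IgG-treated mice (replicates 1 to 3) and 20.2%, 22.4% and 51.0% in those of anti-PD-1-treated mice. In spleen, the shares were 87.0%, 87.5% and 94.8% under IgG and 95.3%, 75.7% and 92.5% under anti-PD-1. Every draining node library thus lay below every spleen library, with replicate 3 of both treatments above the other draining node libraries. The means were 31.2% ± 15.5 and 88.8% ± 7.32 (SD, n = 6), a difference of -57.6 percentage points (two-sided exact permutation test of the organ labels within treatment, p = 0.005, the smallest that its 400 relabellings can give). For scale, detected shares ranged from 95.7% to 97.2% in the tumour libraries of the series and from 8.48% to 44.1% in the nondraining lymph nodes.

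Nontargeting sgRNAs, which disrupt no gene, were missing from the nodes to the same degree. Between 20.4% and 50.4% of the 250 were detected in the draining node libraries, with a mean of 31.1% ± 14.8 (SD, n = 6). In spleen, 81.6% to 98.8% were detected, with a mean of 93.3% ± 6.42. The difference was -62.2 percentage points (exact permutation test, p = 0.005). In all 6 spleen libraries the detected share of nontargeting sgRNAs was above that of targeting sgRNAs, whereas both shares had almost the same mean in the nodes. How few T cells were recovered and how many were lost in the node cannot be told apart in these data.

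**Figure D1:**
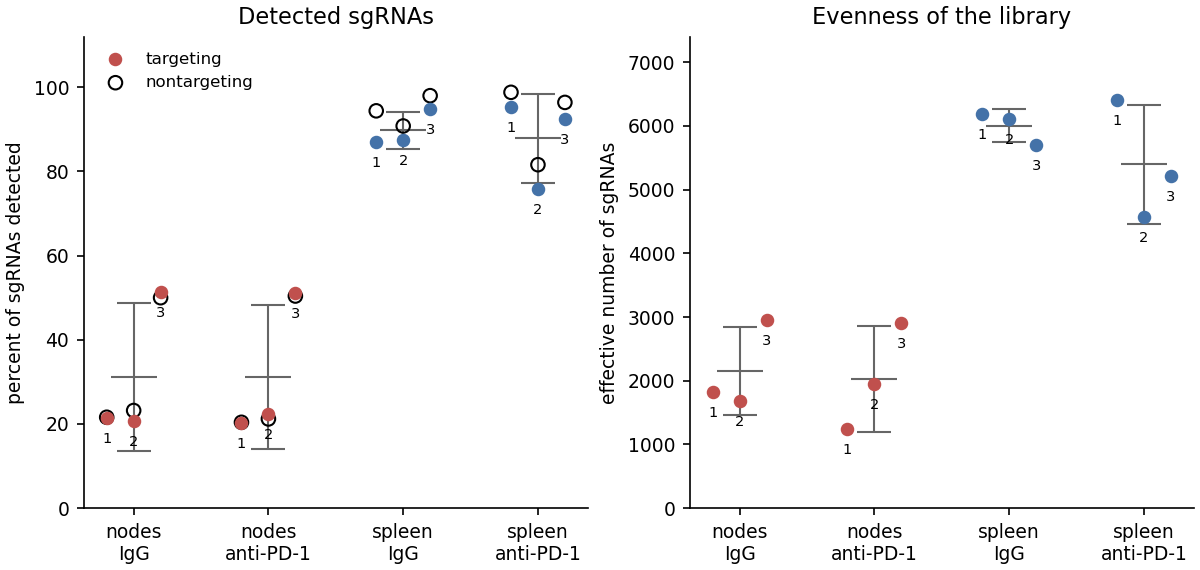
The panels plot, for each library, the percentage of targeting and of nontargeting sgRNAs detected and the effective number of sgRNAs, with 1 point per library, its replicate number below it and a bar at the group mean. The 6 draining node libraries sit below the 6 spleen libraries in each panel, and replicate 3 sits highest among the nodes in the detected shares.

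The signal in the nodes rested on fewer sgRNAs. The effective number of sgRNAs, which is the exponential of the Shannon entropy of the signal and equals the number of sgRNAs in a perfectly even library, ranged from 1238 to 2951 (median 1880) in the draining nodes. It ranged from 4573 to 6408 (median 5911) in spleen, again without overlap. The difference in means was -3612 (exact permutation test, p = 0.005). The 100 sgRNAs with the highest signal took 13.7% ± 1.68 of the signal in the draining nodes and 9.90% ± 1.99 in spleen (SD, n = 6), a difference of 3.82 percentage points (exact permutation test, p = 0.01). This measure did overlap between organs, from 11.2% to 16.3% in the nodes and from 8.03% to 12.3% in spleen. The single most abundant sgRNA held 0.27% to 1.04% of the signal in the nodes and 0.22% to 0.70% in spleen.

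The median signal of a detected sgRNA was higher in the nodes, where a summed signal of similar size was spread over fewer sgRNAs. Summed signals were 2690302 to 3277074 in the draining node libraries and 1965083 to 3589586 in spleen. The median signal of detected sgRNAs was 1118, 1310 and 407 in draining nodes under IgG and 1687, 1175 and 382 under anti-PD-1. The spleen medians were 226, 255 and 145 under IgG and 232, 227 and 113 under anti-PD-1. Each draining node median exceeded each spleen median.

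The detected signal of the nodes fell into 2 separate ranges, and the lower one was shared between particular libraries. Values under 20 made up 13.5%, 15.7% and 30.3% of detected sgRNAs in the IgG draining nodes and 39.4%, 5.84% and 23.2% in the anti-PD-1 ones. Values from 20 to 100 were rare there, at 0.0878% to 7.08%, against 17.6% to 36.5% in spleen. In draining node IgG replicate 3, 974 of the 1657 sgRNAs with such low values (58.8%) had a signal above 100 in draining node IgG replicate 2, whereas 0.0773% of its undetected sgRNAs did. In anti-PD-1 replicate 3, 1080 of 1261 (85.6%) had a signal above 100 in anti-PD-1 replicate 2, against 0.038% of its undetected ones. The source of this overlap was not tested. All tests here took the 6 draining node libraries as separate units, so their p-values hold only as far as these libraries are independent. Counting only signals above 20 as detected, a definition added after the data had been seen, gave 12.2% to 39.1% in the draining nodes and 73.8% to 91.3% in spleen. The difference was then -61.0 points (exact permutation test, p = 0.005), as large as with the low values counted.

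**Figure D2:**
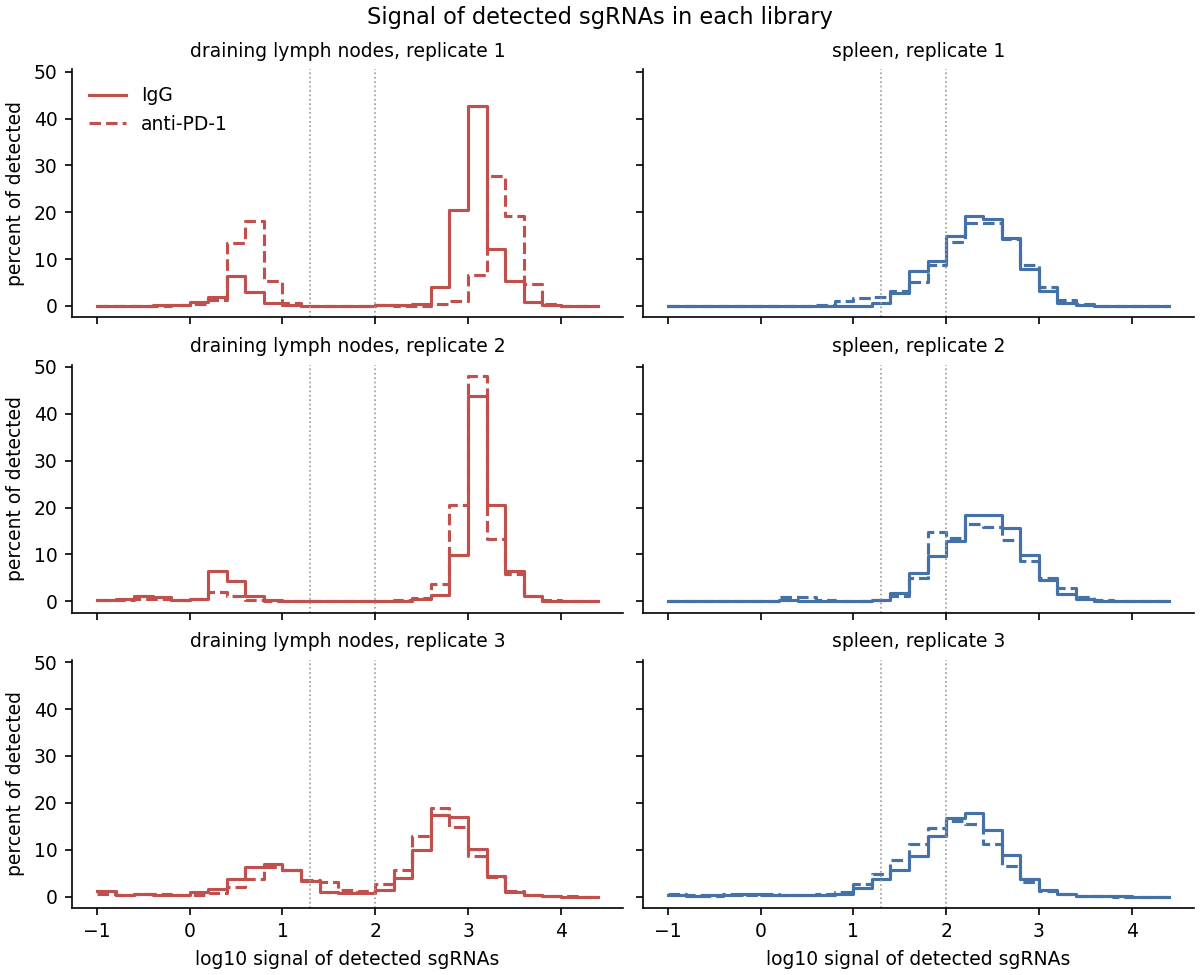
Histograms show the signal of detected sgRNAs in each of the 12 libraries on a logarithmic axis, with dotted lines at 20 and 100. Draining node libraries have a high peak above 100 and a separate low peak, whereas spleen libraries form 1 broad peak that spans the interval between the lines.

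Abundance at the time of transfer was related to which sgRNAs were found. With the targeting sgRNAs ordered by their signal in the cells at transfer (T0) and cut into 5 classes of 2078, the mean share detected in the draining nodes was 18.0%, 23.96%, 29.1%, 35.8% and 49.2% from the lowest class to the highest. In spleen it was 77.8%, 85.9%, 90.0%, 93.6% and 96.7%. The share was higher in each more abundant class in both organs, and in the most abundant class it ranged from 35.5% to 73.9% over the draining node libraries and from 92.7% to 98.7% over the spleen libraries.

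Few sgRNAs were found in all draining node libraries, but those of replicate 2 were mostly found again in replicate 3 of the same treatment. With nontargeting sgRNAs included, 2048 of the 2219 detected in IgG replicate 2 were also detected in IgG replicate 3, and 2312 of 2380 under anti-PD-1. For replicate 1, 1510 of 2277 were also detected in replicate 3 under IgG and 1395 of 2148 under anti-PD-1. Only 100 targeting sgRNAs (0.962%) were detected in all 6 draining node libraries and 2239 (21.5%) in none of them. In spleen, 6668 (64.2%) were detected in all 6 libraries and 104 (1.001%) in none. A signal above 100 was held in all 6 libraries by 23 sgRNAs (0.221%) in the nodes and by 2519 (24.2%) in spleen. Among sgRNAs detected in both libraries of a pair, the Spearman correlation of the signal had a median of 0.109 over the 15 pairs of draining node libraries (-0.0818 to 0.223) and of 0.381 over the 15 pairs of spleen libraries (0.238 to 0.474). Over the 36 pairs of 1 draining node and 1 spleen library the median was 0.173. These are descriptions across sgRNAs, which share their library and normalization.

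The sgRNAs that recurred among the 100 most abundant also differed between the organs. In the draining nodes, 4 sgRNAs reached the top 100 in at least 3 of 6 libraries. One of them targets Ip6k2, an inositol hexakisphosphate kinase, and did so in 4 libraries. The others, each in 3 libraries, target Abcc1, an exporter of glutathione conjugates, Aldh1a7, an aldehyde dehydrogenase, and Pigp, a subunit of the enzyme that begins GPI anchor synthesis. In spleen, 6 sgRNAs did so, of which 3 target Pik3cd, 2 target Pik3r1 and 1 targets Galc, a lysosomal galactosylceramidase. No sgRNA of Pik3cd or Pik3r1 recurred at this level in the nodes. Whether the organs differ in recurrence was not tested.

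Genes were then compared by rank, so that the smaller number of sgRNAs in the nodes would not by itself lower every gene. Within a library, sgRNAs were ranked by signal from 0 to 100 percent. All but the highest k of them were tied at 1 value, with k the smaller number of detected sgRNAs of the draining node and spleen library of the same treatment and replicate number. The value of a gene is the mean rank of its 5 sgRNAs, and a gene with no sgRNA among the k highest in any library has 34.4. The tied value was 24.3 or 24.5 in the libraries numbered 3 and 38.8 to 39.9 in the others. The main limma model had no term for the replicate number, so this shift is part of the spread and of the ranges given below. Across the 2078 genes, the mean rank over the 6 draining node libraries and that over the 6 spleen libraries had a Pearson correlation of 0.702 and a Spearman correlation of 0.667, as a description over genes that are not independent. Of the 50 highest genes in each organ, 19 (38.0%) were shared. Gene means spread less in the nodes (SD 6.87) than in spleen (SD 8.82), and 8 genes against 26 had a mean rank above 70, so a gene near the top of the spleen had more room below it in the nodes than above.

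Several of the highest genes of the draining nodes were high in spleen too. Mgat2, an N-acetylglucosaminyltransferase of complex N-glycans, had a mean rank of 74.7 ± 8.11 in the nodes and 77.8 ± 8.27 in spleen (SD, n = 6). Pigh, a subunit of the enzyme that begins GPI anchor synthesis, had 72.4 ± 18.3 and 75.03 ± 10.2. Slc25a11, the mitochondrial carrier of oxoglutarate and malate, had 70.6 ± 15.2 and 78.6 ± 6.44. These 3 genes thus stood at places 4, 5 and 7 of the nodes and at places 8, 12 and 5 of the spleen, with means that lay closer together than 1 SD of the draining node libraries. Above them in the nodes were Man1b1, Cyb5rl, a cytochrome b5 reductase-like gene with 77.4 ± 6.47 against 69.8 ± 17.8 in spleen, and Pik3cd.

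By limma, with treatment as a covariate and Benjamini-Hochberg adjustment over all 2078 genes, 3 genes ranked higher in draining nodes than in spleen (0.144% of genes tested) and 10 ranked lower (0.481%), which makes 13 in all (0.626%). Higher were Mgat4b and Man1b1, which shape N-glycans, and Pgk1 of glycolysis. Lower were the phosphoinositide 3-kinase genes Pik3cd and Pik3cb, the glycosylation genes Stt3a and B3gnt2, the sterol and lipid enzymes Hsd3b7 and Awat2, the methylation genes Dnmt3a and Mat1a, and the guanylate cyclases Gucy2c and Gucy2e. At an unadjusted p under 0.05 there were 79 higher genes (3.8%) and 119 lower ones (5.73%). Over all genes, draining node and spleen ranks did not overlap for 5 genes higher (0.241%) and 11 genes lower in the nodes (0.529%). Among the 13 genes that passed, 9 did not overlap and 4 did, namely Man1b1, Awat2, B3gnt2 and Pik3cb.

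These calls were sensitive to how ranks were formed, to the replicate number and to single libraries. In simulated data the rank test gave more false calls among unchanged genes than true ones among genes made lower in the nodes, and few false calls of higher genes. Lower calls were thus the less secure ones in the simulation. The simulated libraries had no effect of the replicate number and no shared low values, so they do not show that the higher calls are secure. With the replicate number, whose libraries share their lowest values, as a block, 5 of the 13 passed (Mgat4b, Stt3a, Hsd3b7, Gucy2e and Gucy2c), and 0 passed with the 6 pairs of treatment and number as the block. None of the 13 passed with 1 common number of ranked sgRNAs in all libraries, with the median of the 5 sgRNAs, or without the 4 libraries numbered 3, and 6 passed (Pgk1, Man1b1, Stt3a, Awat2, Hsd3b7 and B3gnt2) when signals of 20 or less were taken as undetected. Mgat4b, Pgk1, Stt3a, Awat2 and Hsd3b7 passed with any 1 library left out, the other 8 did not, and the number of lower genes was 3 without draining node IgG replicate 2, 4 without spleen IgG replicate 3, 5 without spleen anti-PD-1 replicate 2, and 6 without draining node anti-PD-1 replicate 2 or spleen anti-PD-1 replicate 3.

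**Figure D3:**
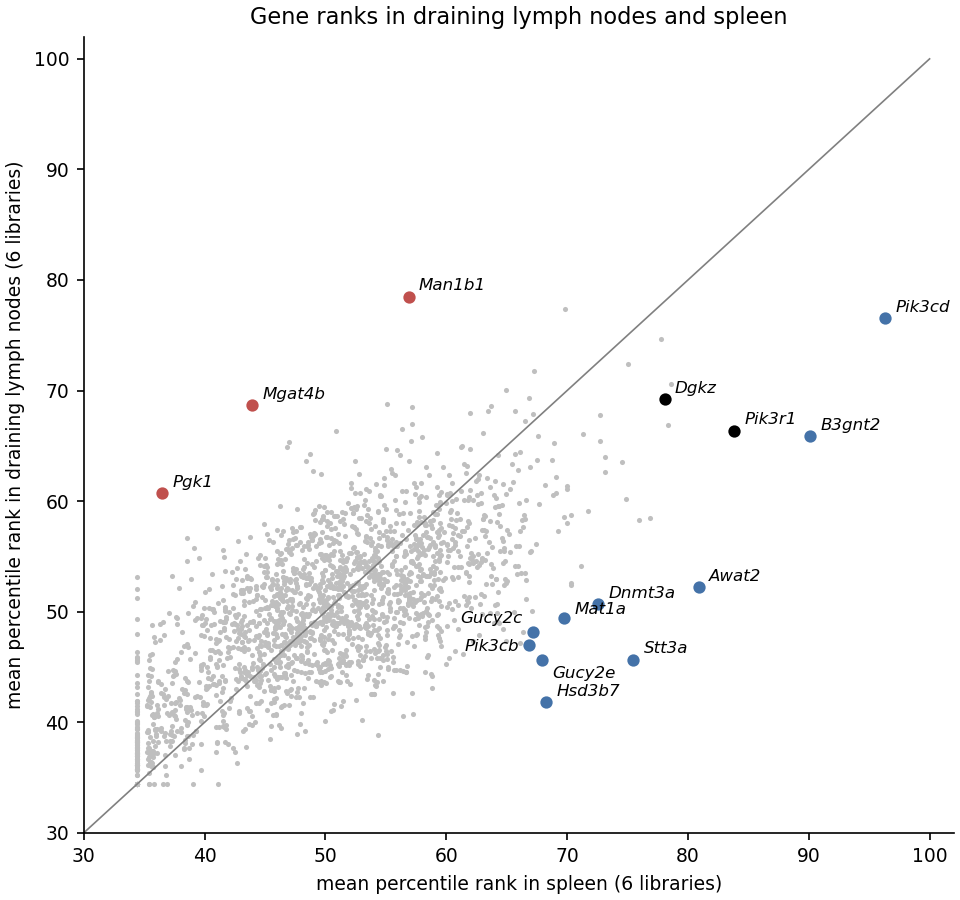
Each point is 1 of the 2078 genes, placed by its mean percentile rank over the 6 spleen libraries (horizontal) and the 6 draining node libraries (vertical), with a line of equality and the genes that passed limma in colour. Pik3cd lies at 96.3 in spleen and 76.6 in the nodes, and Man1b1 is the highest gene of the nodes at 78.5.

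The N-glycan genes that stood higher in the nodes act at separate steps of the pathway. Man1b1 encodes the mannosidase of the early secretory pathway that trims high-mannose glycans. Its rank ranged from 66.2 to 84.3 (median 81.2) in draining nodes and from 38.8 to 67.8 (median 59.5) in spleen, a difference of 21.6 ± 5.16 (SE; limma adjusted p = 0.0158). Only the lowest draining node library lay within the range of the spleen. Of its 30 sgRNA-by-library values, 24 were detected in the nodes, the highest number of any gene there, and 28 in spleen. With each of 4 libraries left out in turn the adjusted p was above 0.05, at most 0.112, without spleen anti-PD-1 replicate 2.

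Mgat4b encodes an N-acetylglucosaminyltransferase that adds a branch to complex N-glycans. Its rank was 50.4 to 79.2 (median 69.8) in draining nodes and 39.6 to 49.9 (median 43.7) in spleen, without overlap. The difference of 24.8 ± 5.05 (limma adjusted p = 0.00234) was the largest positive one of all genes. Detected values numbered 21 of 30 in the nodes and 24 of 30 in spleen, although the median gene had 9.5 in the nodes and 28 in spleen. With signals of 20 or less taken as undetected the adjusted p was 0.149. Several of its sgRNAs carried the rank, since 4 of the 5 had a signal above 100 in at least 2 draining node libraries.

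Pgk1 encodes phosphoglycerate kinase, which makes ATP in glycolysis. Its rank was 49.99 to 79.7 (median 60.02) in draining nodes and 24.5 to 39.9 (median 39.1) in spleen. The 6 draining node values lay above the 6 spleen values, and the difference was 24.2 ± 5.14 (limma adjusted p = 0.00406). In spleen, 26 of 30 of its values were detected, but few were high enough to be among the ranked sgRNAs. In the nodes, 15 of 30 were detected, and a single sgRNA (s_02576) was above 100 in all 6 libraries.

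Pik3cd, the catalytic p110 delta subunit of the leukocyte PI3K, was the highest gene of the spleen and the third highest of the draining nodes. It passed as lower in the nodes by rank, but its log2 signal relative to the median of all genes turned to a difference of 1.002 (pseudocount 1) and 0.035 (pseudocount 10), higher in the nodes. Its rank was 60.4 to 87.5 (median 77.3) in draining nodes and 92.8 to 97.7 (median 96.9) in spleen. The means were 76.6 ± 9.69 and 96.3 ± 1.82 (SD, n = 6), a difference of -19.7 ± 5.04 (limma adjusted p = 0.0379). All 30 of its values were detected in spleen and 22 in the nodes. The sgRNA s_02627 was above 100 in all 12 libraries, whereas s_02628 was detected in 2 of 6 draining node libraries and in all 6 spleen libraries. The call was lost without any of 8 libraries, with an adjusted p of at most 0.159 without draining node IgG replicate 2, and it was 0.129 with signals of 20 or less taken as undetected.

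The 12 genes of PI3K subunits in the library did not move as 1 group, since 8 had a negative and 4 a positive difference, from -19.9 for Pik3cb to 5.58 for Pik3cg (median -2.07). Pik3cb, the p110 beta catalytic subunit, ranked 38.8 to 67.8 (median 43.8) in draining nodes and 59.1 to 75.4 (median 66.7) in spleen, a difference of -19.9 ± 5.21 (limma adjusted p = 0.0413). It had 8 of 30 detected values in the nodes and 29 of 30 in spleen. The call was lost without any of 8 libraries, with an adjusted p of at most 0.151 without spleen anti-PD-1 replicate 3. Pik3r1, the p85 alpha regulatory subunit and the third highest gene of the spleen, did not pass, nor did the other 9 genes. It had 53.6 to 73.9 (median 68.7) in draining nodes and 74.2 to 92.4 (median 83.9) in spleen, so the groups did not overlap, with a difference of -17.4 ± 5.05 (limma adjusted p = 0.0916).

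The glycosylation genes that stood lower in the nodes act before and after branching. Stt3a, the catalytic subunit of an oligosaccharyltransferase that attaches the glycan to proteins, had the largest difference of any gene. It ranked 39.3 to 59.2 (median 43.3) in draining nodes and 60.6 to 84.6 (median 79.1) in spleen, a difference of -29.8 ± 5.09 (limma adjusted p = 0.000188). All of its 30 values were detected in spleen and 7 in the nodes. B3gnt2, which extends polylactosamine chains on surface glycoproteins, was the second highest gene of the spleen, at 82.0 to 97.6 (median 90.7).

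In the draining nodes B3gnt2 varied most among the genes that passed. Its rank was 80.4, 39.6 and 57.2 in IgG replicates 1 to 3 and 84.3, 50.8 and 83.1 under anti-PD-1. Thus 3 of the 6 libraries were near or within the range of the spleen and the rest were far below it. The difference was -24.2 ± 5.58 (limma adjusted p = 0.0120), with 18 of 30 values detected in the nodes and 30 of 30 in spleen. The adjusted p was 0.129 without draining node IgG replicate 2, 0.0840 without draining node anti-PD-1 replicate 2 and 0.522 without both, a setting added after the data had been seen. Over single libraries left out it exceeded 0.05 for 4 of the 12, from 0.0534 to 0.129.

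Hsd3b7 and Awat2 act on sterols and neutral lipids. Hsd3b7 oxidizes hydroxylated sterols in bile acid synthesis and inactivates the oxysterol ligands of the lymphocyte receptor Gpr183. It ranked 36.6 to 48.5 (median 39.7) in draining nodes and 49.9 to 84.96 (median 66.3) in spleen, a difference of -26.5 ± 5.19 (limma adjusted p = 0.00147). Only 4 of its 30 values were detected in the nodes, against 29 in spleen, and 3 of its 5 sgRNAs were found in 0 of the 6 draining node libraries. Awat2, an acyltransferase that makes wax and retinyl esters and is known from skin glands, ranked 32.2 to 72.8 (median 50.1) in draining nodes and 59.7 to 96.6 (median 84.6) in spleen. Its difference was -28.6 ± 5.56 (limma adjusted p = 0.00147), with 10 of 30 values detected in the nodes and 30 in spleen.

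Dnmt3a and Mat1a belong to methylation. Dnmt3a, a de novo DNA methyltransferase that restrains memory potential in effector CD8+ T cells, ranked 39.9 to 61.5 (median 50.5) in draining nodes and 61.9 to 83.2 (median 74.3) in spleen. The difference was -21.8 ± 5.13 (limma adjusted p = 0.0141), and the adjusted p exceeded 0.05 without any of 4 libraries, at most 0.0809 without spleen IgG replicate 3. Mat1a, the liver form of the enzyme that makes S-adenosylmethionine, ranked 38.8 to 59.0 (median 50.4) in draining nodes and 59.3 to 89.0 (median 67.8) in spleen. Its difference was -20.3 ± 5.24 (limma adjusted p = 0.0394), and it was lost without any of 8 libraries, with at most 0.212 without spleen IgG replicate 2. Neither gene overlapped between the organs, although the gaps were below 1 rank unit.

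Both guanylate cyclases that passed are membrane receptors known from other tissues. Gucy2c is the guanylin receptor of the gut epithelium, and Gucy2e belongs to photoreceptors. Gucy2e ranked 39.3 to 53.5 (median 44.1) in draining nodes and 59.6 to 72.9 (median 68.5) in spleen, a difference of -22.2 ± 4.999 (limma adjusted p = 0.00925, and 0.0543 without draining node IgG replicate 2). Gucy2c ranked 39.6 to 53.4 (median 49.0) and 62.5 to 72.1 (median 67.7), a difference of -19.0 ± 4.92 (limma adjusted p = 0.0394), which was lost without any of 9 libraries (at most 0.139, without draining node IgG replicate 2). The nodes held 5 and 8 of 30 detected values of Gucy2e and Gucy2c, and the spleen 28 and 29. Both medians were thus below the median over all genes in the nodes (50.2) and above it in spleen (49.97).

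**Figure D4:**
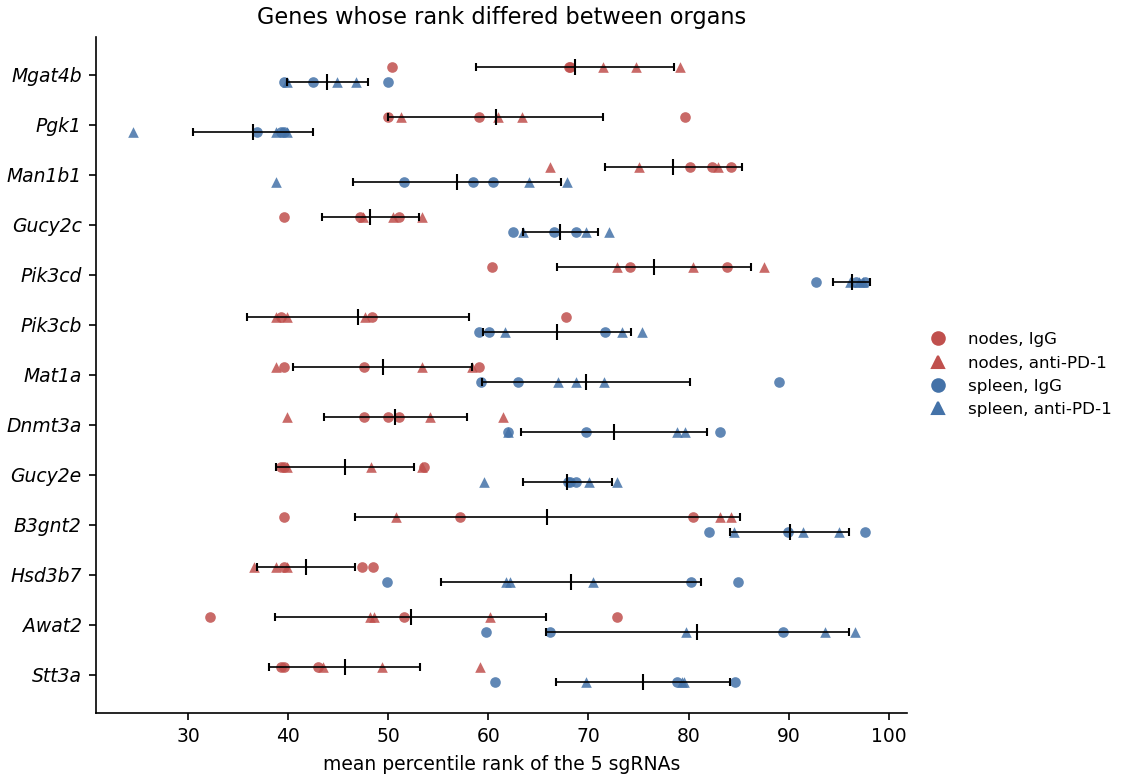
For each of the 13 genes that passed limma, the mean percentile rank of its 5 sgRNAs is plotted for every library, coloured by organ. Points of the organs separate fully for 9 genes, whereas Man1b1, Awat2, B3gnt2 and Pik3cb overlap.

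Of the other genes that the study names for its screen, none differed between the organs by limma. Dgkz, a diacylglycerol kinase that ends T cell receptor signalling through diacylglycerol, stood high in both organs. It had 58.7 to 79.4 (median 68.1) in draining nodes and 67.2 to 87.7 (median 80.1) in spleen, a difference of -8.83 ± 5.04 (adjusted p = 0.592). Elovl1, which elongates saturated very long fatty acids, had 38.1 to 59.8 (median 42.4) and 46.9 to 71.7 (median 56.4), a difference of -11.7 ± 5.15 (adjusted p = 0.459). It was detected in 7 of 30 values in the nodes and 29 of 30 in spleen, and 2 of its 5 sgRNAs were found in no draining node library. The essential genes Rpl9, a ribosomal protein, and Polr1d, a subunit of RNA polymerases I and III, were scarce in both organs. Rpl9 had 1 and 4 detected values of 30 in draining nodes and spleen, and Polr1d had 2 and 13, with limma adjusted p of 0.966 and 0.923.

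The number of detected sgRNAs per gene was tested separately. A gene had a median of 9.5 detected values of 30 in the draining nodes (quartiles 7 and 12) and of 28 in spleen (27 and 29). No gene had all 30 in the nodes, where the highest number was 24 and 24 genes had 0, whereas 374 genes had all 30 in spleen. A quasi-binomial model per gene, with the detected share of each library as an offset and a dispersion moderated by limma, called 0 genes in either direction (0% of 2078). In simulated data this model missed most of the genes that had been changed, so its 0 calls do not show that no gene differed. At an unadjusted p under 0.05 it had 15 genes with more detected sgRNAs than the offset predicts (0.722%) and 263 with fewer (12.7%), and the smallest adjusted p was 0.189. These 2 counts are not comparable. A gene with all 30 values in spleen could only be fitted as having fewer in the nodes, whatever its number there. B3gnt2, with 18 of 30 in the nodes, was fitted so. Relative to the offset, Mgat4b and Man1b1 had the highest values, at 2.32 and 1.92 on the log2 scale of the complementary log-log model (adjusted p = 0.189 for both).

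The 6 genes with the smallest p for fewer detected sgRNAs in the nodes were of mixed function. Ndufa7, a subunit of respiratory complex I, had 0 of 30 detected values in the nodes and 25 in spleen. Nup133, a nuclear pore protein, had 0 and 22. Slc33a1, the acetyl-CoA transporter of the endoplasmic reticulum, had 3 and 30, and Dhrs4, a carbonyl reductase, had 3 and 29. Sult1a1, a sulfotransferase, had 3 and 30, and Gm4847, a predicted flavin monooxygenase, had 2 and 30. None of these passed (quasi-binomial test, adjusted p = 0.189 for each), so they are values and not calls. For Slc33a1, Sult1a1 and Gm4847, with all 30 values in spleen, the direction was fixed by the model.

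Gene lists of cell machinery were depleted in both organs. Of the 20 ribosomal protein genes, 8.33% of values were detected in the nodes and 34.2% in spleen, against 31.2% and 88.8% over all genes. RNA polymerase subunits (26 genes) had 13.3% and 54.2%, proteasome and COP9 signalosome genes (14) had 15.2% and 65.0%, and respiratory complex I (38) had 16.2% and 73.6%. Aminoacyl-tRNA synthetases (3) had 13.3% in the nodes, and the vacuolar proton ATPase (23), which acidifies lysosomes, had 17.4% and 68.8%. No member of these lists passed the rank test. Their median rank differences were between 0.86 and 3.55, against 0.35 over all genes, of which 1111 (53.5%) had a positive difference. Single members differed more, from -18.4 for Cops8 of the COP9 signalosome (limma adjusted p = 0.0709) to 13.6 for a member of respiratory complex I. Atp6v0e2 had -12.1, the lowest value of the vacuolar proton ATPase list. Because 108 genes of the spleen and 24 of the nodes stood at the lowest possible rank, a gene at that floor in spleen could only be equal or higher in the nodes.

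Among the lists of energy metabolism, 1 gene passed, and no list was tested as a whole. Of 20 glycolysis genes, Pgk1 passed, 5 were higher at an unadjusted p under 0.05 (limma) and 14 had a positive difference, with a median difference of 6.26. Over all 2078 genes, 3.8% were higher at that level and 53.5% had a positive difference. The median rank of the list in spleen was 42.2, against 49.97 over all genes. Eno1, which encodes enolase, had a difference of 15.3 (limma adjusted p = 0.148). Pgk1 and Eno1 had mean ranks of 36.5 and 39.6 in spleen, so neither had much room to be lower in the nodes. The 15 genes of the mitochondrial ATP synthase had a median of 5.35 and 12 positive differences, none of which passed. Their median rank in spleen was 38.1, near the lowest possible 34.4. Atp5f1, a subunit of its peripheral stalk, had 17.6 (limma adjusted p = 0.107). The TCA cycle (19 genes) had a median of 1.58 with 11 positive and none that passed, and respiratory complexes II to IV (35 genes) had 1.56 with 23 positive and none that passed.

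No gene of nucleotide synthesis, redox or sterol synthesis passed. Of 25 genes of nucleotide synthesis, 22 had a positive difference (median 2.58), against 53.5% of all 2078 genes. Their median rank in spleen was 36.8, near the lowest possible 34.4, so many of them had little room to be lower in the nodes. The consecutive enzymes of pyrimidine synthesis had differences of 13.4 (Cad, limma adjusted p = 0.382), 18.1 (Dhodh, 0.0709) and 18.3 (Umps, 0.121). Of 13 glutathione and selenium genes, 11 were positive (median 5.05). Sephs2, which makes selenophosphate for selenoproteins, had 15.99 (limma adjusted p = 0.145). Among 20 genes of mevalonate and cholesterol synthesis, 15 were positive (median 2.32), and Fdps, which makes farnesyl pyrophosphate, had 18.8 (limma adjusted p = 0.0693).

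Among the lists of lipid signalling, 2 genes passed, both of them PI3K genes. Of 46 PI3K and phosphoinositide enzymes, Pik3cd and Pik3cb passed, 20 had a positive difference and the median was -0.64, with 33.5% and 92.6% of values detected in nodes and spleen. The 10 diacylglycerol kinases had a median of -3.49 and none passed, Dgka having -15.7 (limma adjusted p = 0.180). The 28 genes of sphingolipid metabolism, most of which make or break ceramides and sphingomyelin, had a median of -2.36, with 10 positive and none passed. Of these, the 5 enzymes that make or break sphingosine 1-phosphate, a subset chosen after the values were seen, had differences from -9.39 (Sgpp1) to 4.10 (Sphk2). Acer1, an alkaline ceramidase, had -14.3 (limma adjusted p = 0.235).

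Of 27 genes of fucosylation and selectin ligands, B3gnt2 passed, 15 were positive and the median was 0.51. St3gal4, a sialyltransferase that acts on selectin ligands, had -14.9 (limma adjusted p = 0.233). The 13 genes of N-glycan branching had a median of 1.26 with 7 positive, from 24.8 for Mgat4b to -15.2 for Mgat3, the enzyme that adds the bisecting residue (limma adjusted p = 0.171). Of 6 oxysterol genes, Hsd3b7 passed as lower, while the other 5 had positive differences. Surface NAD and ATP ectoenzymes had 1 positive of 12 (median -3.62), against 53.5% positive over all genes, and none passed.

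The 25 genes of GPI anchor synthesis were the list with the highest detected share in the nodes, 46.5%, and had 95.9% in spleen. Their median rank was 57.7 in draining nodes and 64.1 in spleen, both above the medians over all genes of 50.2 and 49.97. Differences had a median of -2.65 with 11 positive, and none passed. Pigc and Pigf, which act at the first and a late step of the anchor, had -17.7 and -17.0 (limma adjusted p = 0.121 and 0.128). Cytochrome P450 genes, which act mostly in liver, had 33.0% and 93.7% detected, a median of -0.69, close to that of the PI3K list, and 27 positive of 63, and none passed. Cyp4f13 among them had -16.5 (limma adjusted p = 0.145), and expression of these genes in the transferred cells was not measured. The 7 fatty acid elongases had a median of 0.05, with 4 positive and none passed.

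**Figure D5:**
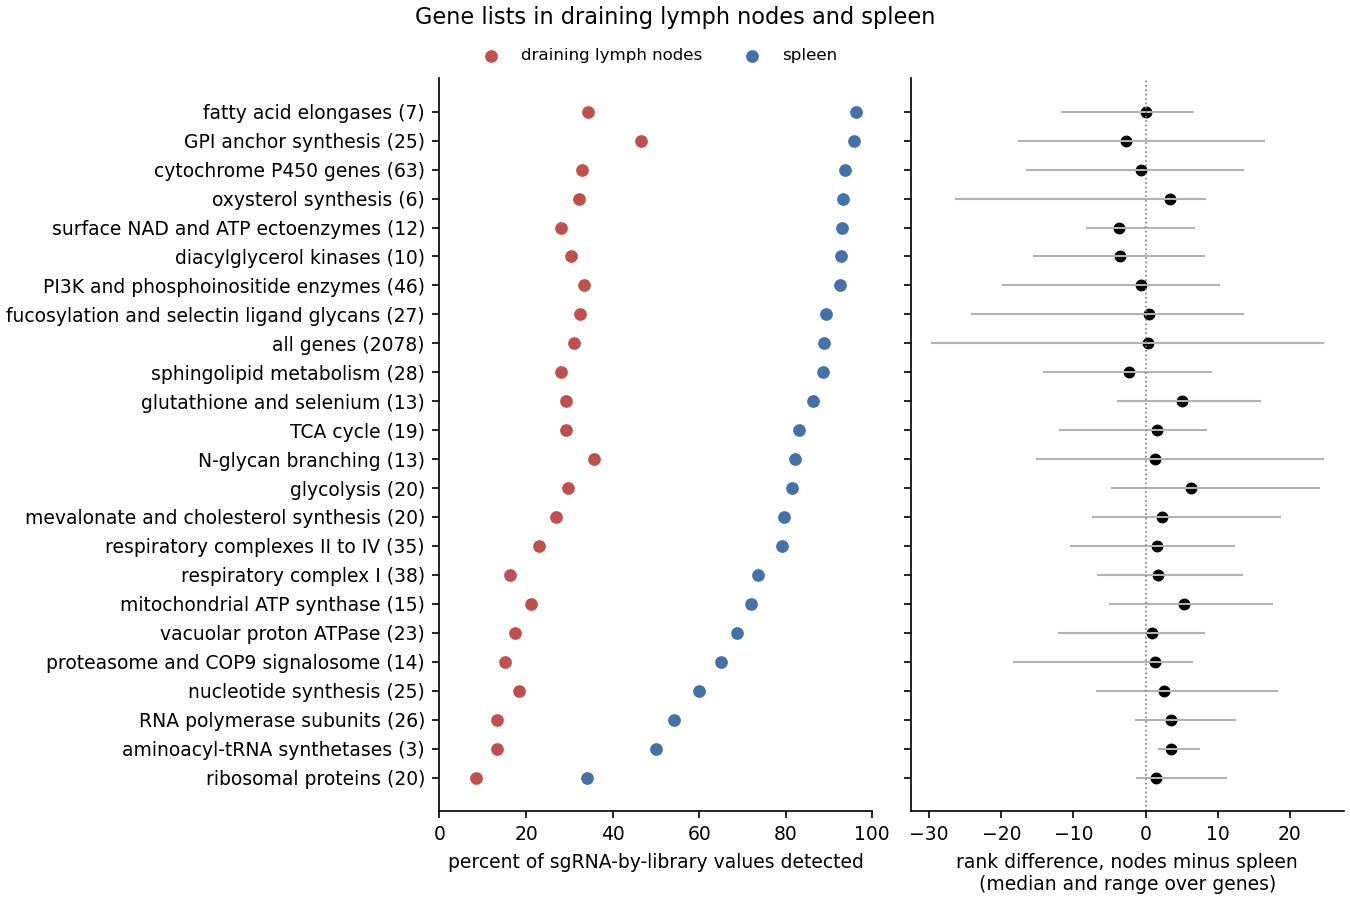
For each gene list (number of genes in brackets), the panels give the percentage of its sgRNA-by-library values detected in draining nodes and spleen and the rank differences between nodes and spleen of its members, with the median. Ribosomal protein genes have the lowest detected share in both organs, and GPI anchor genes the highest in the nodes.

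The difference between organs was also compared between treatments. By limma, 0 of 2078 genes had a rank difference that differed between anti-PD-1 and IgG (0%), with 122 at an unadjusted p under 0.05 (5.87%) and a smallest adjusted p of 0.261. The quasi-binomial model called 0 genes (0%), with 130 at an unadjusted p under 0.05 (6.26%) and a smallest adjusted p of 0.683. For the 13 genes above, the smallest adjusted p of this interaction was 0.859 for ranks. The detected share differed between organs by -58.6 points among the IgG libraries and by -56.6 among the anti-PD-1 libraries, where 3 against 3 libraries cannot give an exact p below 0.1.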

How the data were processed

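Integrated sgRNAs were sequenced from genomic DNA of sorted OT-I cells. The values are a signal per sgRNA and library, which the authors deposited after counting reads with MAGeCK, normalizing to the 250 nontargeting sgRNAs and correcting batches between organs with Combat; settings of the correction and the genome build were not given in the sources used here. The series has 43 samples and 41 libraries with values. Apart from 0 the values are not whole, so no count test was run, no counting interval is given, and read depth is unknown.

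Libraries were grouped by their labels. An sgRNA was detected where its signal exceeded 0 and the lowest value that at least 2 libraries of the same replicate number share (relative tolerance 1e-09). Library measures were compared by two-sided exact permutation of organ labels within treatment. Ranks were tested with limma 3.58.1 in R 4.3.3 (prior degrees of freedom 74.4), and detected sgRNAs of 5 with a quasi-binomial model, complementary log-log link, offset for the library and moderated dispersion of at least 1. Genes passed at a p of at most 0.05 after Benjamini-Hochberg adjustment over all 2078. Both gene models were tested on simulated data. The rank model there called many unchanged genes lower, and the quasi-binomial model called hardly any. The quasi-binomial model also missed most changed genes. It found 1 and 7 of 50 genes at the smaller and larger simulated rise, and 8 and 34 of 50 at the smaller and larger fall. Python 3.11.15, numpy 2.4.6, pandas 2.3.3, scipy 1.17.1 and matplotlib 3.10.9 did the rest.

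Genes were named if they were among the 6 smallest p in either direction of either gene test, among the 2 smallest of a list, or named by the study for this screen; all genes that passed are given, and not every gene that the rule selects. Mat1a and Gucy2c, which passed but fall outside the rule, and the genes of the recurring sgRNAs and of the highest mean ranks, and the subunit tallies, were named after their values were seen. Comparisons, 23 gene lists and tests were chosen with earlier results of these data known. Alternatives changed detection, ties, scale, link, offset, filters, blocks and libraries. Sequences of the sgRNAs are not used here.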

Additional observations from a re-analysis of the deposited data

How the results depend on the processing

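The direction of the 4 library measures held under every alternative run. With 3 libraries against 3, IgG alone and anti-PD-1 alone gave detected shares of -58.6 and -56.6 points, nontargeting shares of -62.8 and -61.6 points, effective numbers of -3853 and -3370 and top-100 shares of 3.66 (exact permutation p = 0.2) and 3.99 points, with p = 0.1, the smallest possible, for all others. Same-numbered libraries were not paired by the labels, and their deviations correlated by -0.0242 to 0.117. The number of ranked sgRNAs was nevertheless set for each pair of treatment and number. With the pairs as a replicate block (exact sign flips), the top-100 difference of 3.82 points had p = 0.0625 and the others 0.03125. Leaving out 1 library gave -62.7 to -54.9, -67.1 to -59.6, -3830 to -3359 and 3.19 to 4.36.

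Of genes ranked higher and lower by limma (3 and 10), plain ranks gave 279 and 141, and the same number ranked everywhere, the median of sgRNAs, and both relative log2 scales gave 0 and 0. With log2(value + 1) or log2(value + 10) there were 0 higher and 2077 lower genes, as the median of all genes moved by -6.01 and -4.39. The replicate block gave 1 and 4, and with 6 pairs as the block 0 and 0. Leaving out 1 library gave 2 to 5 and 3 to 12. Chosen after seeing the data, signals above 20 gave 2 and 5, without both draining node libraries numbered 2 there were 4 lower, without both numbered 3 there were 8, and without all 4 libraries numbered 3 there were 0 and 0. Pik3cd turned to 1.002 and 0.035 on the relative log2 scales with pseudocounts 1 and 10, and Dgkz to 0.28 with 1, all log2 differences. Rpl9 turned to -0.394 without both draining node libraries numbered 2 and ranged from -1.22 to 3.98 with 1 library left out. The causes were not tested. The count of genes called by detected sgRNAs or by the interactions was 0 in each alternative. Few detected sgRNAs in the nodes limit every gene comparison.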
